A study of Homo sapiens with 16 samples.

Results

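The 10 genes described here drive or restrain the passage of cells from G1 into S phase: the D-type cyclins CCND1 and CCND2, the E-type cyclins CCNE1 and CCNE2, the cyclin-dependent kinases CDK2, CDK4 and CDK6, the pocket proteins RB1 and RBL1, and the transcription factor E2F1. They were taken by symbol from a table of 19077 genes, and all 10 were found. Its 16 libraries come from HEK 293, a human embryonic kidney line transformed with adenovirus DNA, and count the mRNA that came down with RISC, the protein complex through which miRNAs act. The pulldown method, RISC-trap, uses a GW182 (TNRC6A) protein made dominant-negative to keep mRNAs bound to RISC until it is precipitated. Each library is named for 1 of 7 miRNAs. There are 2 libraries each of mir550-3p, mir1301-3p, mir1180-3p, mir3613-5p, mir1271-5p and mir1260a-5p, and mir124-3p has 1 library titled Solid and 3 titled Illumina. All come from the same cell line, and the labels name no other treatment or genotype. No library without a miRNA and no library of input RNA was used here, so a difference is always one between pulldowns, and better recovery, more mRNA per cell and more cells that hold it cannot be told apart.

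D-type cyclins pair with CDK4 or CDK6 and E-type cyclins with CDK2, and both kinds of kinase phosphorylate RB1 and its relative RBL1 (p107). Unphosphorylated pocket proteins bind E2F factors and keep genes of DNA replication off; phosphorylation frees E2F1, which also switches on CCNE1 and RBL1. The E1A protein that HEK 293 cells carry binds pocket proteins. In the developing cortex the length of G1 and the level of these regulators bear on whether a progenitor divides again or becomes a neuron. miRNAs guide RISC to mRNAs mainly through the seed, bases 2 to 8 from the 5′ end. CDK6 has been reported as a target of mir124 in other studies.

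The mature sequences, which hold the seeds of the miRNAs named in the labels, are shown here. They are RefSeq's (build GRCh38.p14), 5′ to 3′, with the seed in capitals, and 6 of the 7 miRNAs matched an entry:
mir1180-3p: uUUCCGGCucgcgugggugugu
mir1260a-5p: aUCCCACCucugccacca
mir1271-5p: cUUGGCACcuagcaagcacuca
mir1301-3p: uUGCAGCUgccugggagugacuuc
mir3613-5p: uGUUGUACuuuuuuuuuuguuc
mir550-3p: uGUCUUACucccucaggcacau

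The 6 seeds all differ. The entries are hsa-miR-1180-3p at chr17:19344513-19344534 (minus strand), hsa-miR-1260a at chr14:77266231-77266248 (plus), hsa-miR-1271-5p at chr5:176367960-176367981 (plus), hsa-miR-1301-3p at chr2:25328651-25328674 (minus) and hsa-miR-3613-5p at chr13:49996465-49996486 (minus). For mir550-3p the entry is hsa-miR-550a-3p, as the library descriptions read 550a, with copies at chr7:29680748-29680769 (minus) and chr7:32733041-32733062 (plus). Transcript sequences of the 10 genes, and so their matches to these seeds, were not analysed here.

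Levels are CPM, the counts of a gene per 1000000 counts of its library, scaled over all 16 libraries. Total counts lay between 7612758 and 26527365, and the lowest count of any of the 10 genes in any library was 66. Each of the 6 miRNAs was tested against the mean of the other 5 with edgeR, and a gene was called at an adjusted p under 0.05 over all genes tested. All 10 genes passed the filter on low counts in every comparison. The labels do not say that the libraries of a miRNA come from separate cultures, so p-values measure the spread between these libraries, which may be technical. Within pairs the chi-square per degree of freedom over genes was between 36.7 and 84.8, far above counting error. HEK 293 markers, summed over 9 genes, lay between 815 and 1463 CPM in the 12 libraries of the 6 miRNAs, of which VIM gave most, while KRT8 stayed at or below 2.14 CPM.

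**Figure D1:**
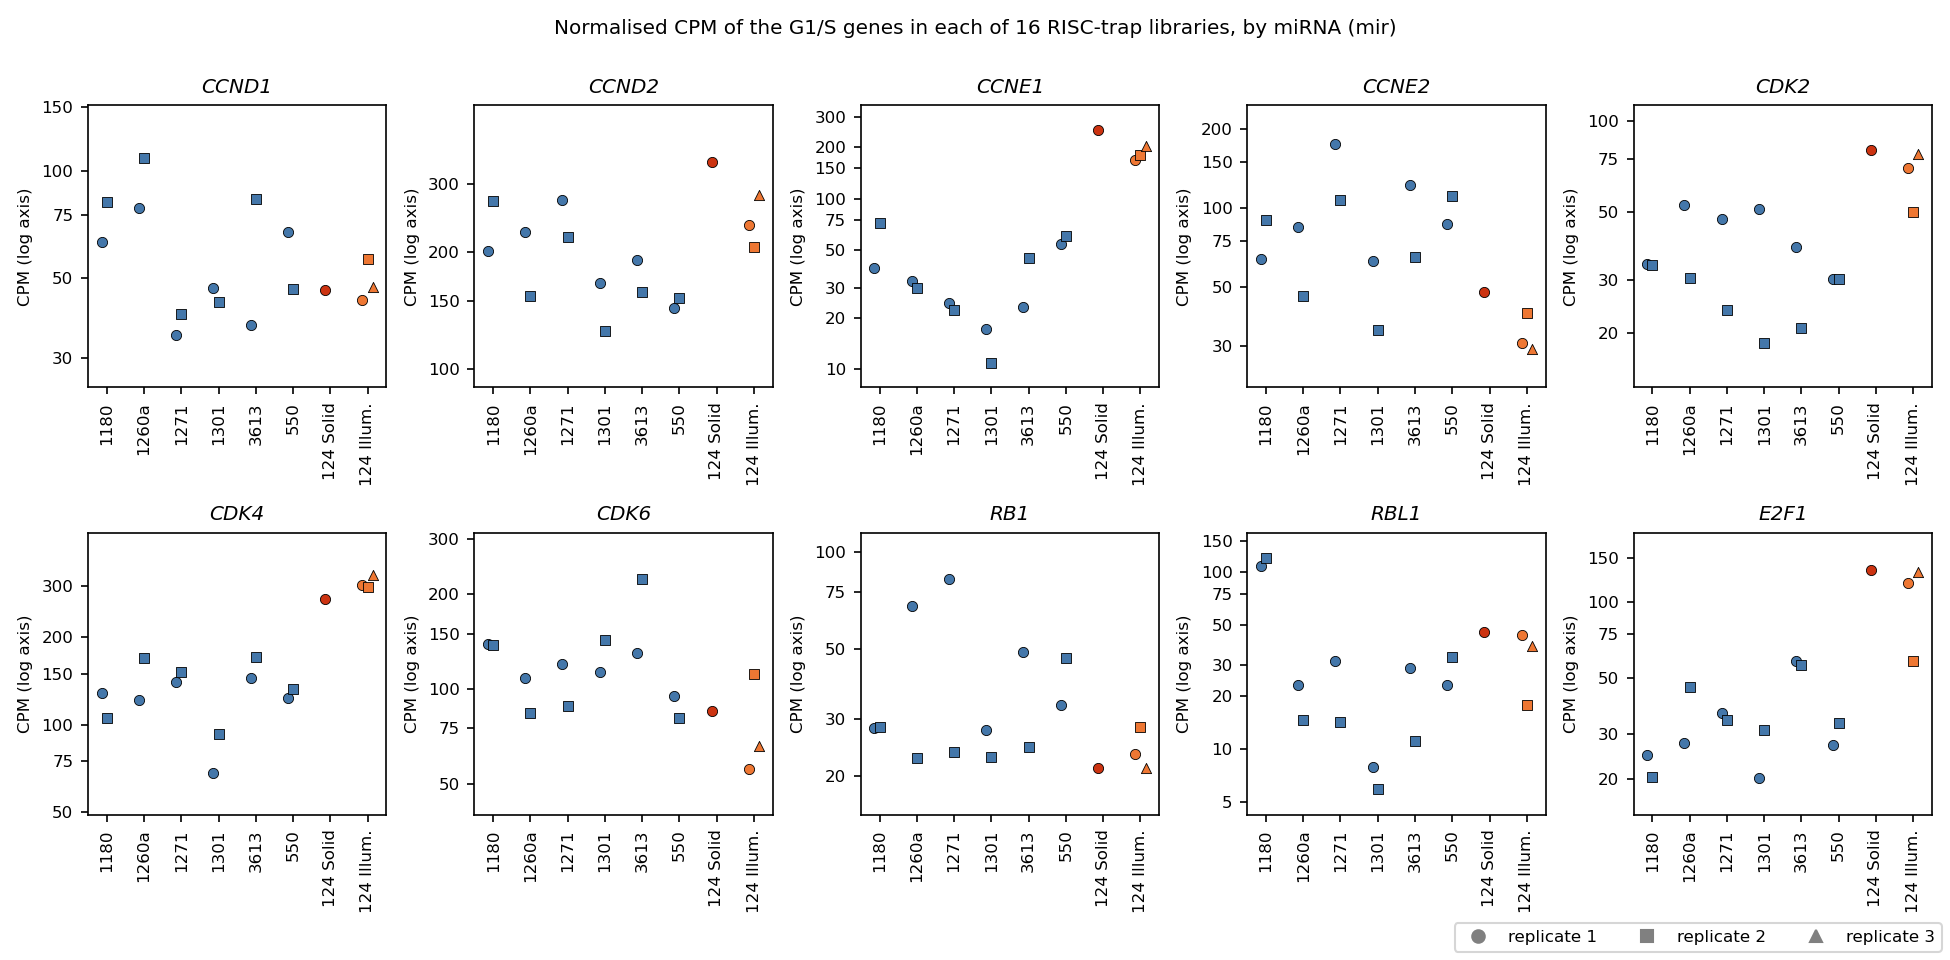
CPM of each of the 10 genes (vertical, log axis, 1 panel a gene) in the libraries of each miRNA (horizontal), where 1 point is 1 library and the symbol gives its replicate number. RBL1 is highest in both mir1180-3p libraries (109 and 119.9 CPM) and lowest in both mir1301-3p libraries (7.89 and 5.88 CPM), and CCNE1 is highest in the 4 mir124-3p libraries.

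RBL1, the pocket protein p107, was the member with the widest range, 20.4-fold between the lowest and the highest of the 12 libraries. In the mir1180-3p libraries it stood at 109 and 119.9 CPM. The mir550-3p libraries held 22.9 and 32.9 CPM, the mir1271-5p libraries 31.4 and 14.1, the mir3613-5p libraries 28.5 and 11.1, and the mir1260a-5p libraries 23.0 and 14.5. The mir1301-3p libraries held 7.89 and 5.88 CPM. Both mir1180-3p libraries thus lay above the other 10 and both mir1301-3p libraries below, while the remaining 4 miRNAs overlapped each other. Of all genes, 3.68% lay above the other 10 libraries in both mir1180-3p libraries, and 7.62% below them in both mir1301-3p libraries.

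With mir1180-3p, RBL1 rose by 2.60 ± 0.32 on the log2 scale (SE; adjusted p = 5.8e-05), from 19.2 ± 9.84 CPM (SD, n = 10) to 115 ± 7.52 (SD, n = 2), a 6.06-fold difference. It was the 1 member of 10 called there, beside 2.07% of all genes called in that comparison and 1.92% called higher. RBL1 stayed called without either mir1180-3p library and with the mir1301-3p libraries out of the reference (2.26, adjusted p = 0.00059). The other members had log2 fold changes between -0.78 for E2F1 and 0.82 for CCNE1, and none of these was called.

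With mir1301-3p, RBL1 fell by 2.15 ± 0.45 on the log2 scale (adjusted p = 0.0113). The reference of 40.8 ± 39.7 CPM holds the mir1180-3p libraries, and without these the fold change was -1.70 (adjusted p = 0.0173). The 6 miRNAs also differed in RBL1 without any choice of reference (edgeR adjusted p = 0.00115 for any difference among the 6).

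The 3 genes whose log2 CPM followed RBL1 most closely over the 12 libraries, among 11465 genes, were LSG1 (Pearson r = 0.965), PLRG1 (0.962) and SRPK2 (0.954). LSG1 is a GTPase of ribosome assembly, PLRG1 a component of the spliceosome and SRPK2 a kinase of splicing factors. PLRG1 stood at 1989 and 2378 CPM with mir1180-3p and at 193 and 121 CPM with mir1301-3p, so the mir1180-3p libraries were the highest, while replicate 2 of mir3613-5p (174 CPM) and of mir1260a-5p (192 CPM) lay below 193. These correlations describe libraries that come in pairs and carry no test.

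CCNE1, the E-type cyclin that activates CDK2 at the end of G1, fell in the mir1301-3p libraries. It stood at 17.2 and 10.96 CPM there, below the other 10 libraries, where 7.62% of all genes lay below in this way. The other levels were 24.6 and 22.3 CPM with mir1271-5p, 32.8 and 30.1 with mir1260a-5p, 23.1 and 45.2 with mir3613-5p, 39.5 and 71.8 with mir1180-3p, and 54.4 and 60.3 with mir550-3p. The mir3613-5p pair overlaps the mir1271-5p pair and spans that of mir1260a-5p, and the mir550-3p libraries lie inside the range of the mir1180-3p pair. The fall with mir1301-3p was 1.43 ± 0.36 on the log2 scale, from 40.4 ± 17.1 CPM (SD, n = 10) to 14.1 ± 4.43 (SD, n = 2; adjusted p = 0.0204). The log2 differences of 0.96 ± 0.30 with mir550-3p (adjusted p = 0.115) and 0.82 ± 0.30 with mir1180-3p (adjusted p = 0.216) were not called. For any difference among the 6 miRNAs, CCNE1 had an adjusted p of 0.0452, and the call was lost without any 1 of the 6 libraries of mir1180-3p, mir1301-3p or mir550-3p (adjusted p from 0.0576 to 0.153) and with upper-quartile scaling (adjusted p = 0.0535). RBL1 and CCNE1 were the 2 members of 10 called in that test, beside 5.72% of all genes.

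RBL1 and CCNE1 were also the 2 of 10 members called for mir1301-3p, both lower, where 15.9% of all genes were called and 4.39% called lower. Neither was called without replicate 1 of mir1301-3p (-2.31 and -1.72 for RBL1 and CCNE1; adjusted p = 0.0980 and 0.111) or without replicate 2 (-2.02 and -1.20; adjusted p = 0.109 and 0.175). CDK4, the kinase partner of D cyclins, held 68.4 and 93.1 CPM, below the 105 to 171 CPM of the other 10 libraries, a log2 difference of -0.75 ± 0.28 (adjusted p = 0.0743). DESeq2 called it (-0.79, adjusted p = 0.0285), as did the fit without mir1180-3p in the reference (-0.83, adjusted p = 0.0493), while with upper-quartile scaling it stood at -0.37 (adjusted p = 0.338). Its groups did not overlap, as for 7.62% of all genes. The median over the 10 members was -0.54, against -0.02 over all genes, and with upper-quartile scaling all fold changes of mir1301-3p moved up by a median of 0.39. That scaling gave 4216 genes higher and 222 lower in place of 2039 and 776, and RBL1 (-1.73, adjusted p = 0.00742) and CCNE1 (-1.03, adjusted p = 0.0436) stayed called.

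The mir1301-3p libraries also stood apart in the sum of markers of another cell type, fibroblasts and mesenchyme. Fibroblast and mesenchyme markers, summed over 8 genes, came to 55.9 and 153 CPM there and to between 12.2 and 26.0 CPM in the other 10 libraries, with all 8 genes at 1 CPM or more in both mir1301-3p libraries. None of the 8 was at 0 in any of the 12. COL3A1, COL1A1 and COL1A2 reached at most 59.3, 44.7 and 28.2 CPM over the 12. DCN, LUM, POSTN, FAP and THY1 stayed at or below 5.17 CPM. Markers of liver and keratinocytes, over 5 genes, came to 8.20 and 21.9 CPM against 3.69 to 11.6 in the other 10. Only replicate 2 lay outside that range, and KRT5 alone reached 16.1 CPM at most. Blood markers came to 16.3 and 26.0 CPM against 10.1 to 25.8. Those of neurons and glia came to 89.0 and 47.8 CPM against 57.5 to 116. The part of these markers in the lower RBL1 and CCNE1 was not tested.

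**Figure D2:**
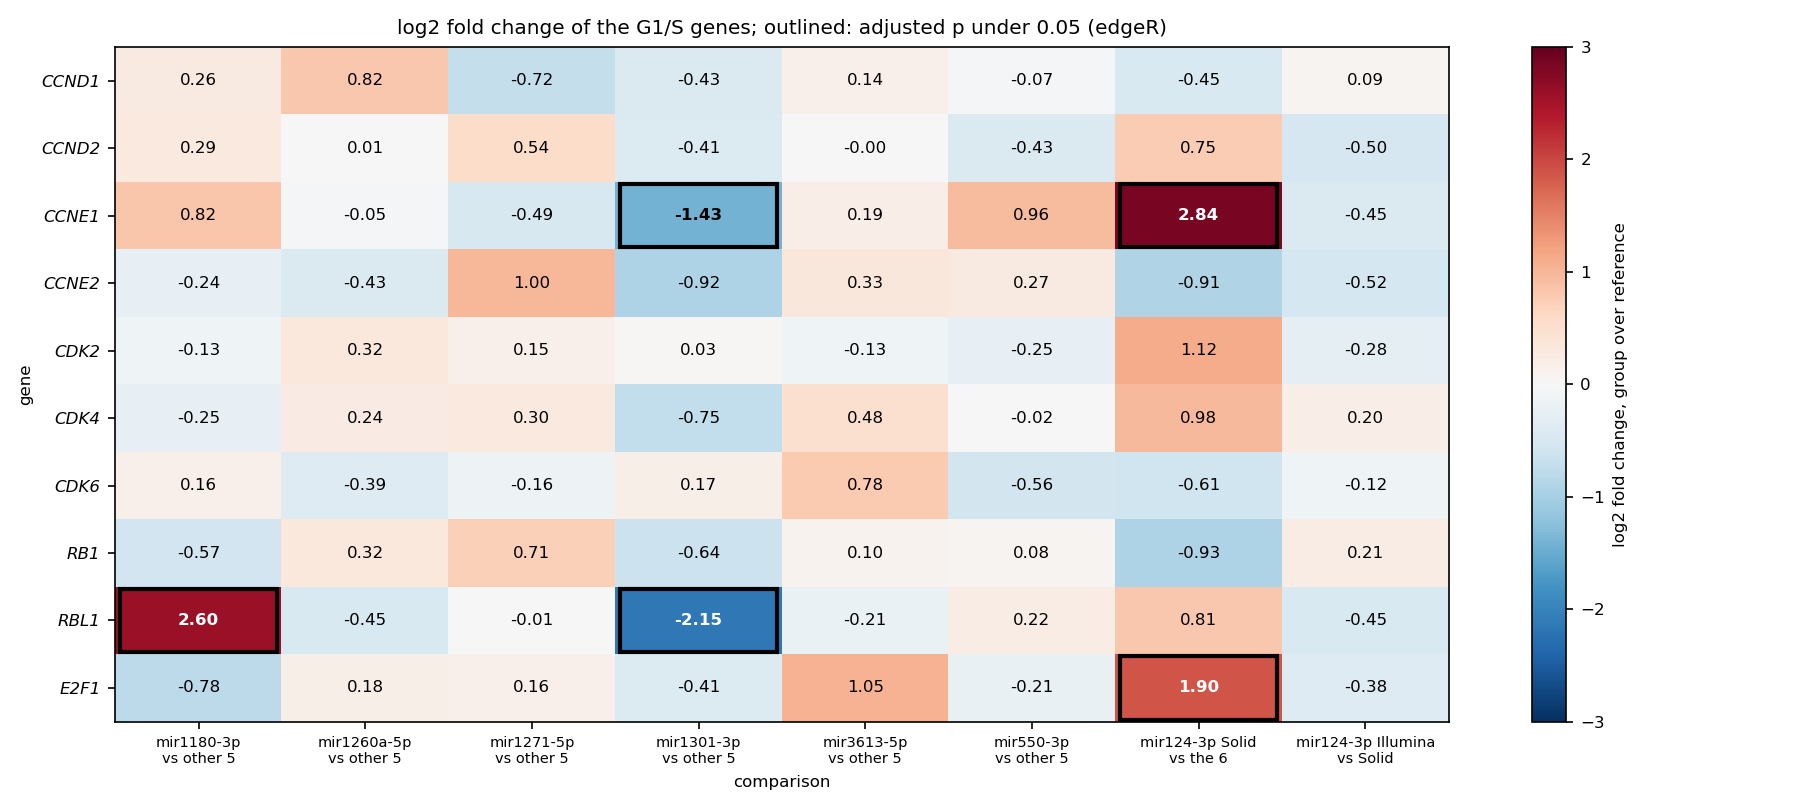
Log2 fold change (colour and number) of each gene (rows) in each comparison (columns), with outlined cells for an edgeR adjusted p under 0.05. The outlined cells are RBL1 at 2.60 with mir1180-3p, RBL1 at -2.15 and CCNE1 at -1.43 with mir1301-3p, and CCNE1 at 2.84 and E2F1 at 1.90 with mir124-3p Solid.

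In the mir124-3p Solid library CCNE1 and E2F1 rose against the 6 miRNAs. CCNE1 stood at 251 CPM, above each of the 12 libraries, which ran from 10.96 over a median of 31.5 to 71.8 CPM. The log2 fold change was 2.84 ± 0.32 (adjusted p = 3.5e-05), or 7.18-fold. E2F1, which turns on genes of DNA synthesis, stood at 135 CPM against 20.1 to 58.4 CPM (median 32.2), a log2 fold change of 1.90 ± 0.34 (adjusted p = 0.00203). These 2 of 10 members were called, both higher, beside 8.89% of all genes called and 7.31% called higher. Upper-quartile scaling gave 997 genes higher and 664 lower in place of 1326 and 287, and both members stayed called. With 1 library in the group, its spread was taken from the other miRNAs, and mir124-3p and traits of that library cannot be told apart.

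CDK2, CDK4 and CCND2 were also above all 12 libraries in mir124-3p Solid, but were not called. Of all genes, 21% lay above all 12 in this library and 11% below. CDK2, the partner of E cyclins, held 80.3 CPM against at most 52.9 (log2 difference 1.12 ± 0.45, adjusted p = 0.137). CDK4 held 272 CPM against at most 171 (0.98 ± 0.33, adjusted p = 0.0699), and DESeq2 called it (1.04, adjusted p = 0.0240). So did edgeR with relative log expression scaling (1.04, adjusted p = 0.0396), while the other 14 of 16 alternatives left CDK4 uncalled. CCND2 held 341 CPM against at most 273 (0.75 ± 0.33, adjusted p = 0.166). RB1 was the member below all 12, with 21.1 CPM against 22.7 to 82.3 (-0.93 ± 0.63, adjusted p = 0.390).

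CDK6, the reported mir124 target, held 84.9 CPM in mir124-3p Solid and 55.6, 111 and 65.9 CPM in the Illumina libraries. The 12 libraries of the other miRNAs ran from 80.7 to 224 CPM with a median of 117. Its log2 difference in the Solid library was -0.61 ± 0.40 (adjusted p = 0.381), with a 95% interval from -1.45 to 0.24. With 1 library, the spread behind that interval was taken from the other miRNAs, so it sets no bound on CDK6 recovery with mir124-3p.

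The 3 Illumina libraries of mir124-3p were set beside the Solid library. CCNE1 stood at 169, 179 and 204 CPM, and CDK4 at 304, 299 and 328 CPM, so the 3 libraries were close to each other for both. E2F1 stood at 119, 58.3 and 132 CPM and RBL1 at 44.1, 17.6 and 38.2, where replicate 2 was the low library for both. In replicate 2, E2F1 thus lay just below the highest library of the other miRNAs (58.4 CPM), while replicates 1 and 3 lay above it. The chi-square per degree of freedom over genes was 7.29 between replicates 1 and 3. It was 89.6 between replicates 1 and 2 and 101.7 between replicates 2 and 3, so replicate 2 stood apart from the others. CCNE2 stood at 30.7, 39.8 and 29.1 CPM. Against the Solid library none of the 10 members was called by edgeR (adjusted p from 0.421 to 0.944) or by DESeq2. Of all genes, edgeR called 21.9% there (2.37% higher and 19.5% lower). None of the 10 had an unadjusted p under 0.05 in edgeR, beside 28.9% of all genes. With 1 Solid library, whose spread was taken from the other groups, the lack of calls does not show equal levels. The median log2 difference was -0.33 over the members and -0.39 over all genes. Against the other miRNAs, the Illumina platform and mir124-3p cannot be told apart.

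TNRC6A, where counts of the cell's own gene and of the trap construct may be mixed and were not separated here, was among the 3 genes closest to CCNE1 over the 12 libraries. The others were SLC25A25, a mitochondrial carrier (r = 0.915), and FHOD1, an actin regulator (0.877), and TNRC6A had an r of 0.888. TNRC6A was lowest in replicate 2 of mir1301-3p at 5667 CPM and highest in the mir550-3p libraries at 15555 and 16071 CPM. In mir124-3p it reached 50722 CPM in the Solid library and 46744, 13923 and 48453 CPM in the Illumina libraries. Illumina replicate 2, with the low TNRC6A, held 179 CPM of CCNE1, between the 169 and 204 CPM of the other two. The part of TNRC6A in the level of CCNE1 was not tested.

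**Figure D3:**
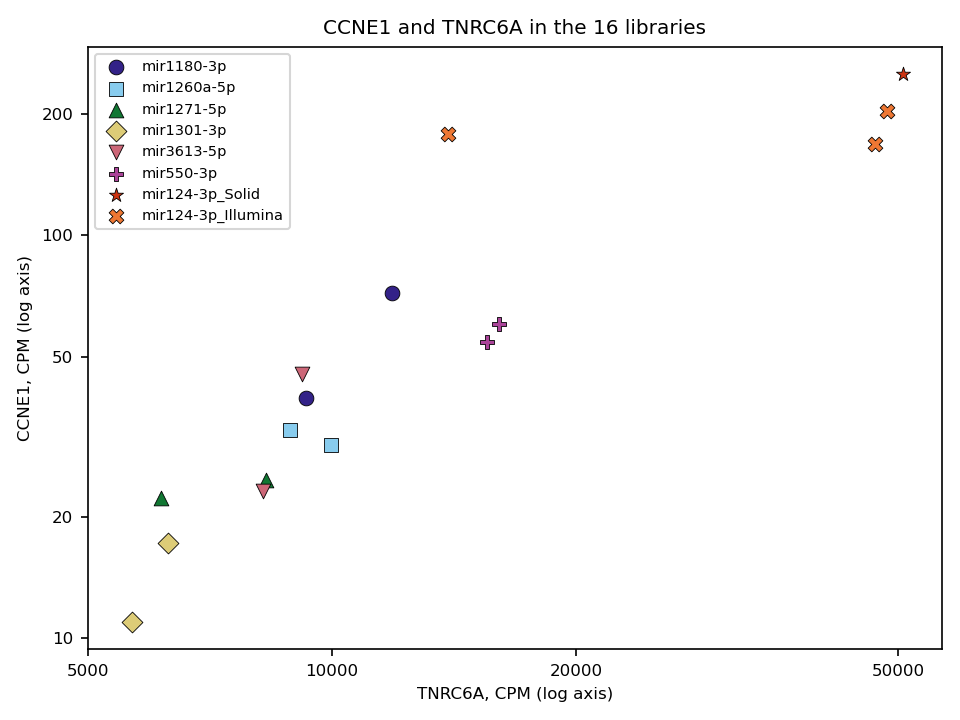
CPM of TNRC6A (horizontal, log axis) and of CCNE1 (vertical, log axis) in the 16 libraries, where each point is 1 library and colour and symbol give the miRNA. Among the 12 libraries of the 6 miRNAs both are low in mir1301-3p; Illumina replicate 2 of mir124-3p has 13923 CPM of TNRC6A with 179 CPM of CCNE1.

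For mir1260a-5p, mir1271-5p, mir3613-5p and mir550-3p no member was called by edgeR or by DESeq2, beside 0.215%, 0.606%, 0.0906% and 1.51% of all genes called by edgeR. An unadjusted p under 0.05 was reached by 1, 3, 2 and 1 of the 10, beside 5.33%, 9.34%, 14.1% and 16.4% of all genes. E2F1 with mir3613-5p stood at 58.4 and 56.5 CPM, above the 20.1 to 46.0 CPM of the other 10 libraries, a log2 difference of 1.05 ± 0.29 (adjusted p = 0.195). In that comparison 2.08% of all genes lay above the other 10 libraries. The E-type cyclin CCNE2 with mir1271-5p stood at 176 and 108 CPM, 0.999 ± 0.31 above the rest on the log2 scale (adjusted p = 0.255), and replicate 2 lay within the range of the others.

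CCND1, the D cyclin that answers to growth signals, was highest with mir1260a-5p at 78.7 and 109 CPM (log2 difference 0.82 ± 0.30, adjusted p = 0.674) and lowest with mir1271-5p at 34.7 and 39.7 CPM (-0.72 ± 0.33, adjusted p = 0.527). Both sets overlapped the other libraries. CDK6 with mir3613-5p stood at 130 and 224 CPM (0.78 ± 0.27, adjusted p = 0.249), and only replicate 2 was above all others. CCND2 ranged 2.17-fold over the 12 libraries, the narrowest range of the 10.

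For RB1 and CDK2, 2 of the 10 members, the largest fold within a pair of libraries exceeded the fold between the highest and the lowest miRNA mean (3.47 against 2.09 and 2.76 against 1.404). RB1 held 68.0 and 22.7 CPM with mir1260a-5p, 82.3 and 23.7 with mir1271-5p, and 48.8 and 24.7 with mir3613-5p. Replicate 1 was the high library in each of these pairs, by up to 3.47-fold, while the mir1180-3p pair held 28.1 and 28.5 CPM. CDK2 was higher in replicate 1 of all 6 miRNAs, by a log2 difference of 1.47 with mir1301-3p and of 0.02 and 0.01 with mir1180-3p and mir550-3p. For RB1, RBL1, CCNE2, CDK2 and CCND2 alike, replicate 1 was the higher library with mir1260a-5p, mir1271-5p, mir1301-3p and mir3613-5p. Over genes of at least 5 CPM, replicate 1 less replicate 2 also correlated among these miRNAs (r from 0.32 to 0.50). CDK4 leaned the other way, with replicate 1 the higher library for 1 of 6 miRNAs. RB1 had no call in any comparison (adjusted p from 0.305 to 0.9997).

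**Figure D4:**
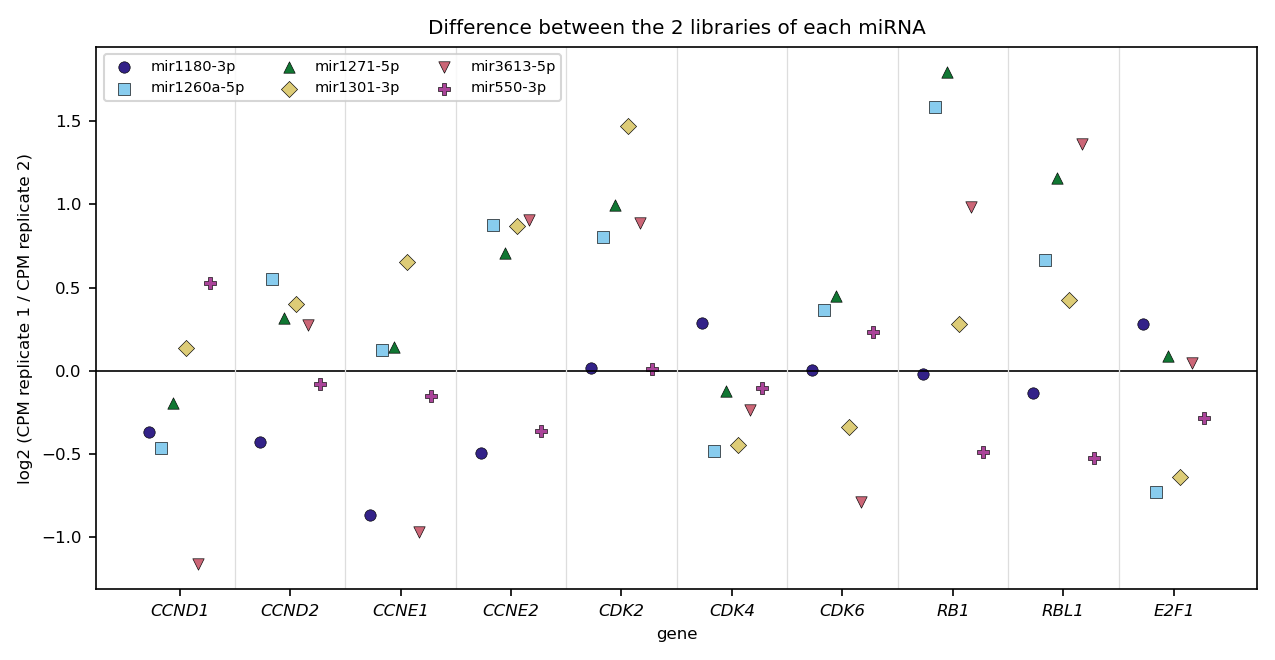
Log2 ratio of replicate 1 to replicate 2 (vertical) for each gene (horizontal) and each of the 6 miRNAs with 2 libraries (colour and symbol). RB1 reaches 1.80 with mir1271-5p and 1.58 with mir1260a-5p, and CDK2 is above 0 for all 6 miRNAs.

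Around the 10 members, 59 further genes of the pathway were taken from lists of CDK inhibitors (7), other cyclins, CDKs and activators (10), other pocket protein, E2F and DP genes (15), ubiquitin ligase genes (9), E2F targets of DNA replication (11) and upstream inputs (7). All 59 were tested in each comparison. With mir1180-3p, 1 rose and 0 fell, beside 1.92% of all genes called higher. It was RRM2, an E2F target that encodes a subunit of ribonucleotide reductase. RRM2 stood at 597 and 312 CPM against 139 on average (1.79 ± 0.29, edgeR adjusted p = 0.00108). The mir550-3p libraries, with 195 and 377 CPM, overlapped the mir1180-3p pair. RRM2 was not called without replicate 1 of mir1180-3p (1.20, adjusted p = 0.230).

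With mir1301-3p 2 of the 59 rose and 3 fell, beside 11.5% and 4.39% of all genes, and the median was -0.44. RRM2 (-1.46), PCNA, the sliding clamp of DNA polymerases (-1.11), and the ligase scaffold CUL1 (-0.97) fell. The kinase cofactor CKS1B (1.27) and the ligase scaffold CUL4A (1.34) rose. Without replicate 1 or 2 of mir1301-3p, the calls of RRM2 (-1.42 and -1.52), PCNA (-1.53 and -0.79) and CUL1 (-0.98 in both cases) were lost. CKS1B (1.02) and CUL4A (0.76) lost theirs without replicate 1. PCNA and CUL1 lost theirs also with upper-quartile scaling (-0.68 and -0.58). The same held without replicate 1 of mir1180-3p or either library of mir550-3p, and for PCNA without mir1180-3p replicate 2, mir1260a-5p replicate 1 or mir3613-5p replicate 1 (-1.16 to -0.96 for both genes). CKS1B has near-identical copies elsewhere in the genome, so its counts are uncertain.

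With mir124-3p Solid 9 of the 59 rose and 0 fell, beside 7.31% of all genes called higher, and the median was 0.09 against -0.12 over all genes. Of the E2F targets 4 of 11 rose: the origin proteins ORC1 (1.88 ± 0.35, adjusted p = 0.00243) and CDC6 (1.46), the replication helicase cofactor CDC45 (1.69) and thymidine kinase TK1 (1.53). The E2F genes E2F4 (1.56) and E2F5 (1.29), the third D cyclin CCND3 (1.19), the CDK4 and CDK6 inhibitor CDKN2C (1.34) and CUL1 (1.17) rose too. TK1 and CCND3 were not called with upper-quartile scaling (1.36 and 1.003). CCND3 also lost its call without replicate 2 of mir550-3p (1.17) and CUL1 without replicate 1 of mir550-3p (1.15). For TK1 the call was lost without replicate 2 of mir1180-3p, replicate 1 of mir1260a-5p or mir3613-5p, or either library of mir1271-5p or mir550-3p (1.46 to 1.57).

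With mir550-3p MNAT1, the assembly factor of the CDK-activating kinase, was the 1 of 59 to rise (1.33, adjusted p = 0.0406), beside 1.2% of all genes, and it was not called without replicate 1 (1.63) or replicate 2 (0.95) of mir550-3p. Its call was also lost without 1 of the libraries mir1180-3p replicate 2, mir1271-5p replicate 2, mir1301-3p replicate 1 and mir3613-5p replicate 1 (1.24 to 1.30), without mir1301-3p in the reference (1.24) and with upper-quartile scaling (1.22). No gene of the 59 was called by edgeR for mir1260a-5p, mir1271-5p or mir3613-5p, where DESeq2 called 0, 1 and 0. An unadjusted p under 0.05 in edgeR was reached by 1, 4 and 5 of them, beside 5.33%, 9.34% and 14.1% of all genes. Between the platforms of mir124-3p, 6 of the 59 were called, beside 21.9% of all genes (2.37% higher and 19.5% lower). The Illumina libraries were higher in CDK3, CKS1B, E2F6 and SKP1 (1.33 to 2.75) and lower in E2F5 (-1.01) and thymidylate synthase TYMS (-2.49). E2F5 lost that call with DESeq2 (-0.67) and with the other 2 scalings (-0.67 and -0.89). It also lost it without any 1 of the 3 Illumina libraries (-1.04 to -0.70) or of the 4 libraries of mir1180-3p and mir1301-3p (-0.71 to -0.60).

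**Figure D5:**
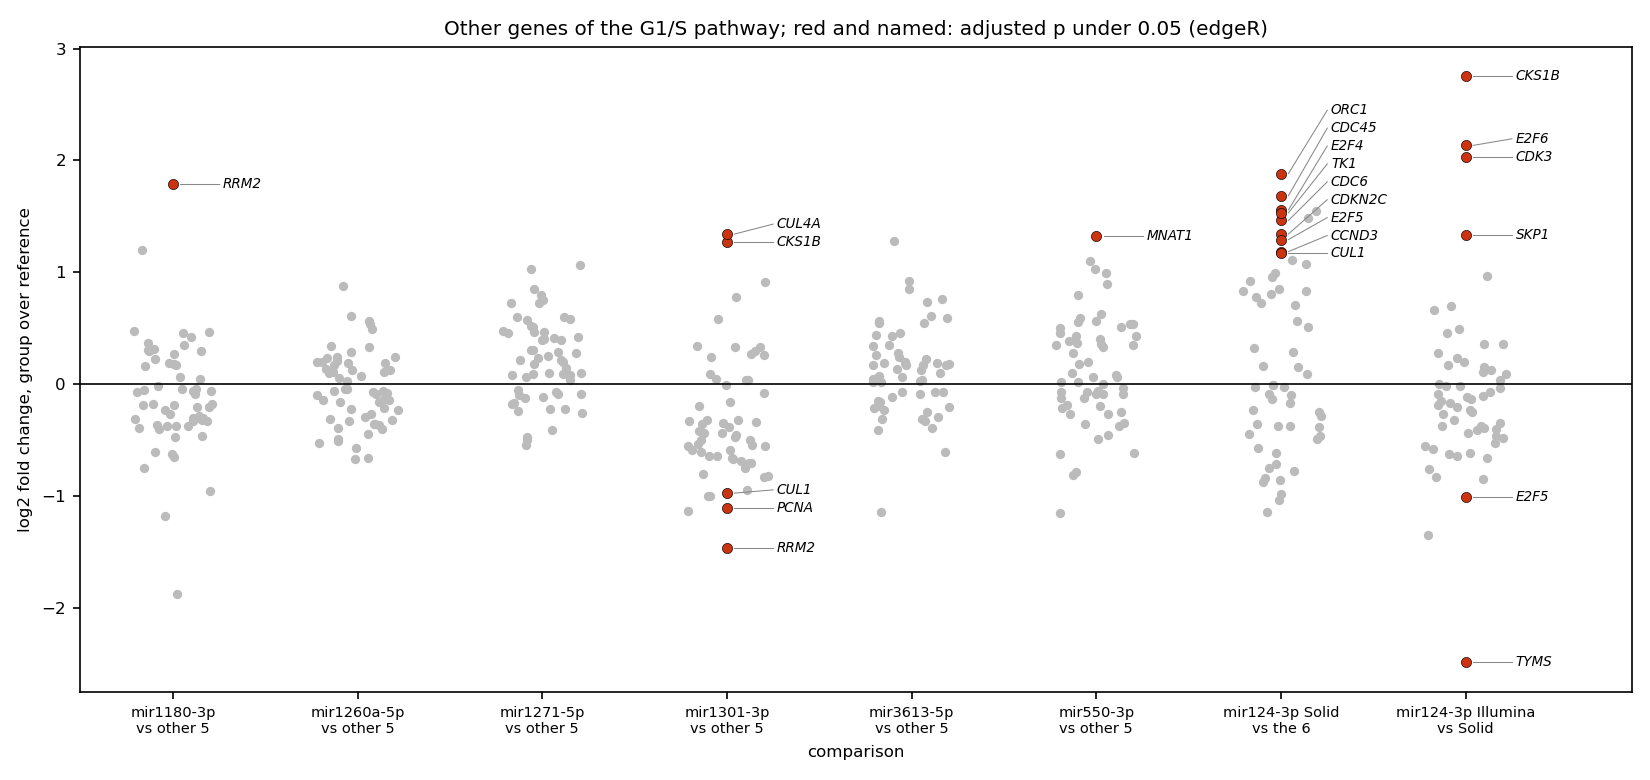
Log2 fold change (vertical) of the 59 further pathway genes in each comparison (horizontal); grey points are genes not called, and red named points have an edgeR adjusted p under 0.05. The called genes number 1 for mir1180-3p, 5 for mir1301-3p, 1 for mir550-3p, 9 (each of them higher) for mir124-3p Solid and 6 between the platforms.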

How the data were processed

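Raw counts, not normalised, were deposited by the authors in a single table of RefSeq mRNAs with a column for each of the 16 libraries. TopHat2 and hg19 are named in the submitters' processing notes; their versions, the read counter, strandedness and gene models were not given in the sources used here. Library preparation was with a SOLiD kit for total RNA, per the labels' protocols. The 10 members and the lists of pathway genes and markers were chosen with earlier results of these data known, and 1 pathway gene is not reported here. In edgeR 4.0.16 (R 4.3.3), low genes were filtered with filterByExpr, libraries scaled by trimmed mean of M values, and group means compared by two-sided quasi-likelihood tests (robust), with Benjamini-Hochberg adjustment over all genes and calls under 0.05. The 6 miRNA comparisons used 12 libraries (17658 genes), mir124-3p Solid 13 and the platforms 16. SE are from the test statistic, SD over libraries. The 3 genes most like a member were taken by Pearson r of log2 CPM (prior count 2) among genes of at least 5 CPM, for each member called in a miRNA comparison. Alternatives included DESeq2 1.42.0, other scalings, no filter, each library left out, and blocks. The steps were tested on simulated data. For mir1180-3p, 74% of 4-fold and 14% of 2-fold changes were recovered, and 9.28% of the calls were false. For mir124-3p Solid and for the platforms, 36% and 37% of 4-fold changes were recovered, and 2% of 2-fold changes in each. A gene that was not called may thus still differ by 2-fold and also by 4-fold, above all in the 2 mir124-3p comparisons.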

Additional observations from a re-analysis of the deposited data

How the results depend on the processing

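The rises of RBL1 with mir1180-3p (log2 fold change from 2.26 to 2.83) and of CCNE1 (2.65 to 3.00) and E2F1 (1.72 to 1.997) with mir124-3p Solid were called under every alternative run. The 1 library of mir124-3p Solid was kept in all of these runs. They therefore do not show how CCNE1 and E2F1 would vary between libraries of that group. For mir1301-3p the 2 members called became 0 to 3 with 1 library left out, 3 with the replicate number as a block and 4 with a block for the number in the library descriptions, an alternative chosen after seeing the data. For any difference among the 6 miRNAs the 2 members called became 1 to 2 with 1 library left out, 1 with upper-quartile scaling and 4 with the description block. In this test that block added CCNE2 and E2F1, and DESeq2 also called E2F1 (adjusted p = 0.0206, against 0.114 in the main edgeR fit). Of the named genes, none reversed. Replicate 1 less replicate 2 correlated between miRNAs above 0.1 in 6 of 15 pairs of miRNAs, so the replicate numbers were not taken to pair all libraries. These 6 are the pairs among mir1260a-5p, mir1271-5p, mir1301-3p and mir3613-5p (0.32 to 0.50). Against these, mir1180-3p, whose description numbers run opposite to its replicate numbers, lay at -0.30 to -0.24 and mir550-3p at -0.16 to -0.13. The description block added CCNE2 (-0.94) and CDK4 (-0.77) to the members called for mir1301-3p. The replicate block ended no call of a member; it added CCNE2 with mir1301-3p (-0.95, adjusted p = 0.0496). Counts of all genes called moved by over 1.5 times as follows. With DESeq2, 366 became 693 (mir1180-3p), 38 became 72 (mir1260a-5p), 107 became 163 (mir1271-5p), 16 became 142 (mir3613-5p), 266 became 880 (mir550-3p), 1613 became 2678 (mir124-3p Solid) and 1010 became 3378 (any difference). With upper-quartile scaling the counts were 50 for mir1271-5p, 4438 in place of 2815 for mir1301-3p, 9 for mir3613-5p and 1663 for any difference. Without mir1301-3p in the reference, mir550-3p had 117. With the description block mir1301-3p had 4500, mir550-3p 803, mir1180-3p 587, mir1271-5p 163, mir3613-5p 78, mir1260a-5p 58 and any difference 2875. With 1 library left out, mir1301-3p had 114 to 4509, mir550-3p 9 to 616, mir1180-3p 170 to 438, mir1271-5p 35 to 174, mir3613-5p 8 to 39, mir1260a-5p 19 to 50 and any difference 360 to 1454. Of the 59 pathway genes, DESeq2 called 3 for mir1180-3p, 8 for mir1301-3p, 3 for mir550-3p and 8 for any difference (edgeR 1, 5, 1 and 2), and the replicate block 4 for any difference. The description block called 13 of them for mir1301-3p (2 higher, 11 lower) and 9 for any difference, and with 1 library left out mir1301-3p had 0 to 8. Upper-quartile scaling moved the median of all genes by -0.24 to 0.39 and the relative log expression method moved that of the platforms by 0.33.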
